A study of Danio rerio with 17 samples.

Results

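Genes for digestive enzymes of the exocrine pancreas were followed in liver samples of 17 zebrafish. The set comprised every probe set that the platform annotation assigns to 1 of the symbols ela2, ela2l, ela3l, ctrb1, cpa5 and cpb1 and to no other gene. Of these 6 symbols 5 had a probe set. Cpb1 had 2, which gave 6 probe sets of the 15502 non-control probe sets on the array, or 5 of 8793 named genes. No probe set carries the symbol ctrb1. RefSeq lists ctrb1 as an older name of ctrb.1, and the ctrb.1 probe set is given beside the others without being counted among them.

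The study crossed sex with dietary carbohydrate and hybridised total liver RNA of each fish to its own Affymetrix zebrafish array. The labels give 5 females on 0% carbohydrate (fish 7, 8, 10, 25 and 27) and 5 females on 25% (fish 3, 20, 24, 49 and 51). Among males, fish 11, 26, 30 and 66 were labelled 0% (4 fish), and fish 52, 53 and 54 were labelled 25% (3 fish). The series' design text has 3 males on 0% and 4 on 25%; the labels were followed here. They name no strain or age, and each number is a separate fish.

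Acinar cells of the exocrine pancreas make digestive proteases as inactive zymogens and store them in granules. They release them through ducts into the gut, where trypsin takes part in activating them. Elastases and chymotrypsins cut within proteins, and carboxypeptidases remove single residues from the carboxyl end. In zebrafish the pancreas is not a compact organ: acinar tissue lies scattered in the mesentery along the intestine, close to the liver and bile duct. These enzymes are standard acinar markers and are not products typical of hepatocytes.

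In all 17 samples the hepatocyte markers were among the brightest signals. Fabp10a, the liver fatty acid binding protein, had log2 signals of 12.89 to 13.57, and apoa2, an apolipoprotein gene, 13.19 to 13.65. The mean of 14 hepatocyte genes spanned 11.66 to 12.21. Array medians lay between 3.52 and 3.61. Of the males 3 stood apart: fish 11, 52 and 66 averaged 8.25 to 8.74 over 17 intestinal epithelium genes, and the other 14 fish 4.47 to 5.43. For named enzymes the differences that rest on them are given with and without them. So are the enzymes' SD within groups, the span of their mean, and the counts of the other exocrine, hepatocyte and ovary lists. Spans and shares between groups of single probe sets, and counts of the other lists, are given with all 17 fish. Without fish 11, 52 and 66 the males are only fish 26 and 30 on 0% and fish 53 and 54 on 25%. The values without these 3 males therefore rest on few males. The table holds no detection calls, and precision is limited by the number of arrays.

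The enzymes were bright on every array, and they differed between fish far more than between the sex and diet groups. Their lowest standing was the 86.6th percentile of an array's probe sets, for cpb1 in male fish 54. Between the lowest and the highest fish the log2 span was 5.499 for ela2l, 5.79 for ela3l, 5.81 for ela2, 6.01 for cpa5, and 5.64 and 6.50 for the cpb1 probe sets. The last of these is a 90.6-fold range. Values below are log2 signals, each in the order of the fish numbers just listed.

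Of the 3 elastase genes, ela2 encodes a pancreatic elastase. In females on 0% carbohydrate ela2 was 11.25, 11.22, 10.92, 8.11 and 8.82, and in females on 25% it was 9.51, 11.41, 12.70, 11.10 and 11.95. In males on 0% it was 13.45, 9.48, 9.64 and 13.22, and in males on 25% it was 11.36, 10.33 and 7.64. Fish 11 and 66 were the highest of all, fish 54 was the lowest, and the 4 groups overlapped. Females on 0% comprised 3 fish near 11 and 2 fish below 9.

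Ela2l, which RefSeq also lists as elastaseB and as ctrc, the name of chymotrypsin C, is the direct neighbour of ela2 on the RefSeq assembly. In females it was 10.78, 11.48, 10.999, 8.97 and 9.53 on 0%, and 9.99, 10.90, 12.64, 11.60 and 11.74 on 25%. In males it was 13.36, 9.95, 8.73 and 13.05 on 0%, and 11.71, 10.64 and 7.86 on 25%. The order of the fish was nearly that of ela2, with fish 11 and 66 on top and fish 54 at the bottom. Signal shared between the probes of these neighbours was not tested.

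Ela3l, listed in RefSeq also as elastaseA, lies at another place in the genome, with no other enzyme of the set beside it. In females it was 10.58, 10.70, 10.14, 7.68 and 8.41 on 0%, and 8.83, 10.86, 12.35, 10.72 and 11.74 on 25%. In males it was 12.93, 9.28, 8.94 and 12.67 on 0%, and 11.51, 10.19 and 7.14 on 25%. Ela3l tracked the whole set most closely, with a correlation of 0.996 with the mean of the other 5 probe sets over the 17 fish.

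**Figure D1:**
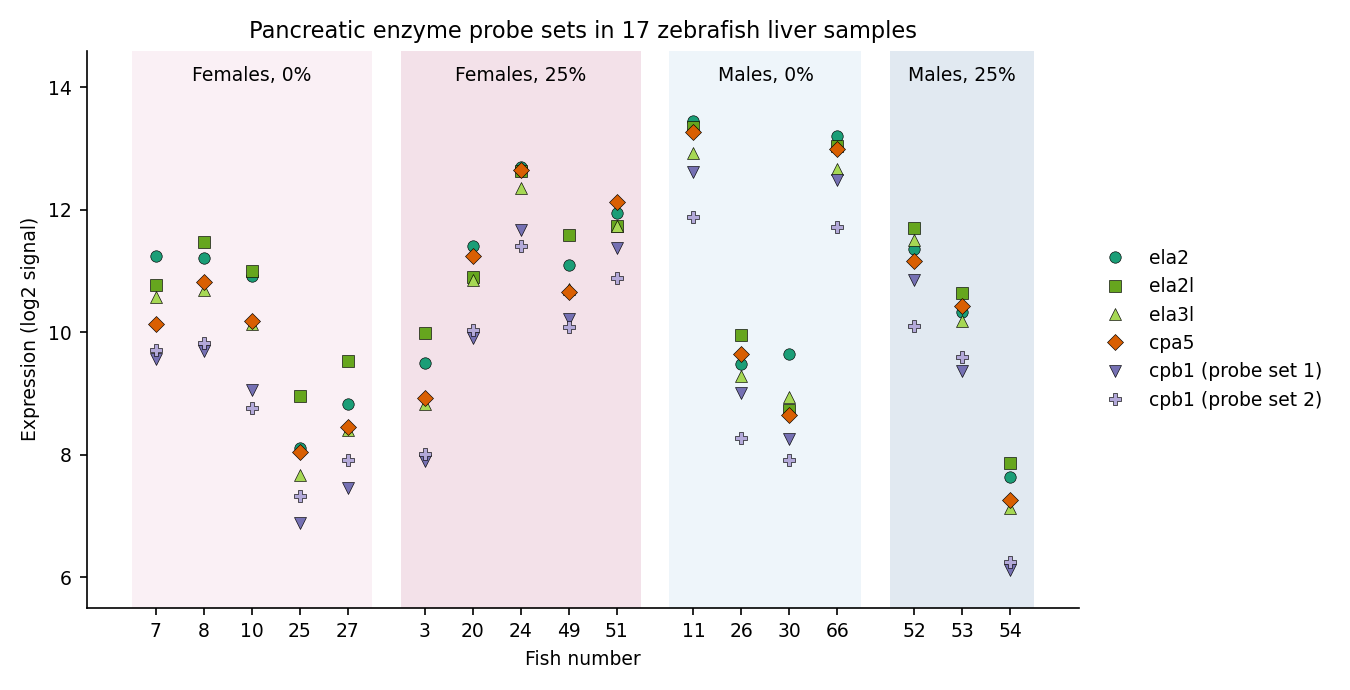
Log2 signal of the 6 enzyme probe sets (markers) in each of 17 fish, in the order of the 4 sex-by-diet groups (shaded). In each fish the 6 probe sets move together; fish 11 and 66 are highest, fish 54 is lowest, and the fish of each group are spread widely.

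The carboxypeptidase genes gave the same picture. Cpa5 belongs to the A-type carboxypeptidases, which remove aromatic and aliphatic residues. In females cpa5 was 10.14, 10.82, 10.19, 8.05 and 8.46 on 0%, and 8.93, 11.25, 12.66, 10.66 and 12.12 on 25%. In males it was 13.27, 9.64, 8.64 and 12.996 on 0%, and 11.16, 10.44 and 7.26 on 25%. The highest fish, fish 11, and the lowest, fish 54, were both males, one on each diet. Cpa5 is the direct neighbour of cpa1, another A-type carboxypeptidase gene, on the RefSeq assembly.

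Cpb1 encodes carboxypeptidase B, which removes the basic residues lysine and arginine and so acts on peptides left by trypsin. Its first probe set gave 9.56, 9.70, 9.05, 6.88 and 7.45 in females on 0% and 7.90, 9.91, 11.67, 10.22 and 11.38 in females on 25%. In males it gave 12.62, 9.002, 8.26 and 12.49 on 0% and 10.86, 9.37 and 6.12 on 25%. This probe set had the widest span of the 6. Its second gave 9.72, 9.83, 8.76, 7.32 and 7.91 in females on 0% and 8.01, 10.04, 11.40, 10.09 and 10.89 in females on 25%. In males the second gave 11.88, 8.27, 7.92 and 11.73 on 0%, and 10.10, 9.60 and 6.24 on 25%. Both probe sets of cpb1 put fish 11, 66 and 24 highest, in that order, and fish 54 lowest.

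Ctrb.1, a chymotrypsinogen gene that stands beside ctrb.2 and ctrb.3 in a row on the RefSeq assembly, followed nearly the same order of fish. In females it was 10.90, 11.13, 10.56, 8.24 and 8.48 on 0%, and 9.56, 11.59, 12.52, 11.31 and 11.94 on 25%. In males it was 13.19, 9.65, 8.99 and 12.83 on 0%, and 11.84, 10.51 and 7.29 on 25%. It was the gene outside the set most like the set's mean, as described further on.

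The 6 probe sets moved together across the fish. Fish 11 ranked 1st, fish 66 ranked 2nd, fish 24 ranked 3rd, fish 51 ranked 4th and fish 54 ranked 17th in all 6. With each probe set centred on its own mean, the fish mean explained 97.8% of the variation of the set. The fish mean ran from -3.15 in male fish 54 and -2.36 in female fish 25 to 2.4997 in male fish 66 and 2.73 in male fish 11, a 58.7-fold range. Without fish 11, 52 and 66 the remaining 14 fish still spanned 5.19, or 36.6-fold, up to 2.05 in female fish 24. Over the 15 pairs of probe sets Pearson's r lay between 0.961 and 0.991 and Spearman's rho between 0.926 and 0.998 (17 fish). Without fish 54 and 11, the 2 farthest from the median, r lay between 0.936 and 0.986, and within groups between 0.959 and 0.995. These correlations describe probe sets read from the same 17 arrays, which share the sample, and carry no test.

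Departures of single probe sets from the fish mean were small, with an SD of 0.245. The largest was that of ela2l in male fish 30, at -0.58. Ela2l departed most as a whole, with an SD of 0.356, and ela3l least, with 0.130. For each step of 1 in the mean of the other 5 probe sets, the first cpb1 probe set moved by 1.13 and ela2l by 0.862. Ela2l lay 0.50, 0.51 and 0.47 above the fish mean in female fish 3, 25 and 27, all of low enzyme level. It lay 0.52 and 0.46 below it in female fish 51 and 20. Among males of low enzyme level it lay 0.19 above the mean in fish 54 and 0.58 below it in fish 30.

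**Figure D2:**
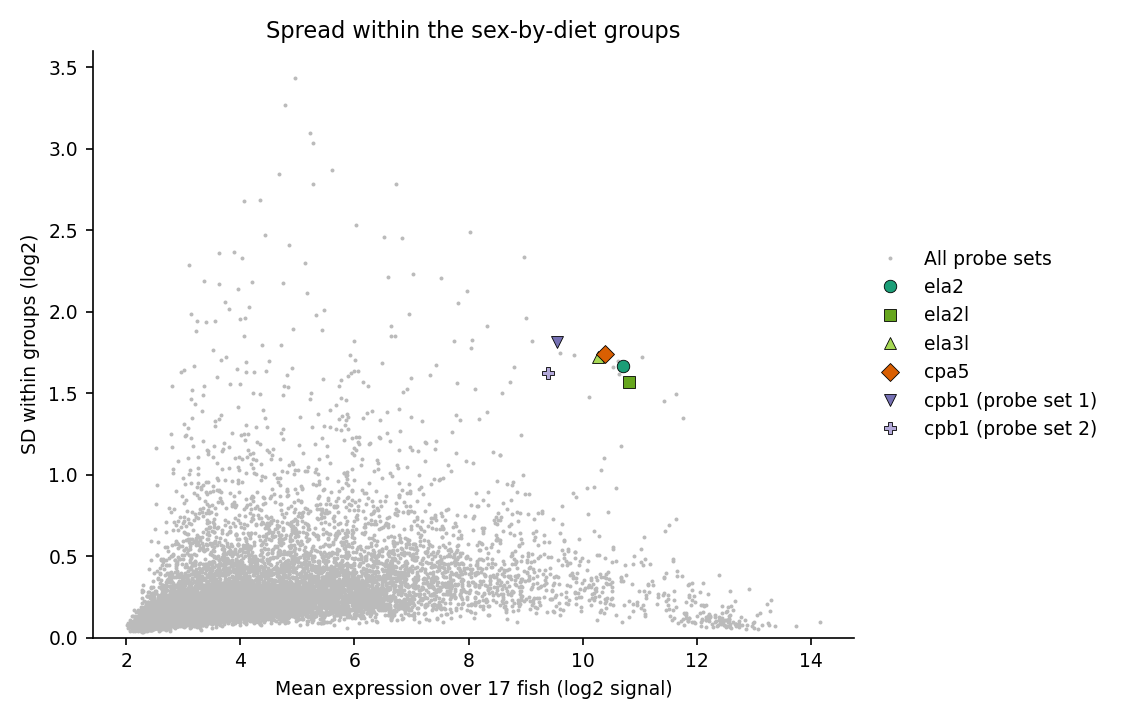
SD within the 4 sex-by-diet groups against mean log2 signal over 17 fish, for all 15502 probe sets (grey) and the 6 enzyme probe sets (coloured). The enzymes lie at 1.57 to 1.82, above nearly all probe sets of like brightness.

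The spread within groups placed the enzymes among the most variable probe sets of the experiment. Their SD within groups was 1.57 for ela2l, 1.67 for ela2, 1.72 for ela3l, 1.74 for cpa5, and 1.62 and 1.82 for cpb1. The median of all probe sets was 0.182 and the 99th percentile 1.34. Ranked by this SD, the enzymes held places 59 to 101 of 15502. Their SD without fish 11, 52 and 66 was 1.14 to 1.45, at places 52 to 142, with a 99th percentile of 1.09. The 4 groups accounted for 13.9% of the variation of ela2l and 23.97% of that of the first cpb1 probe set, with the others between, against a median of 28.0% over all probe sets. Most of the variation in the enzymes was therefore between fish of one sex and diet.

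**Figure D3:**
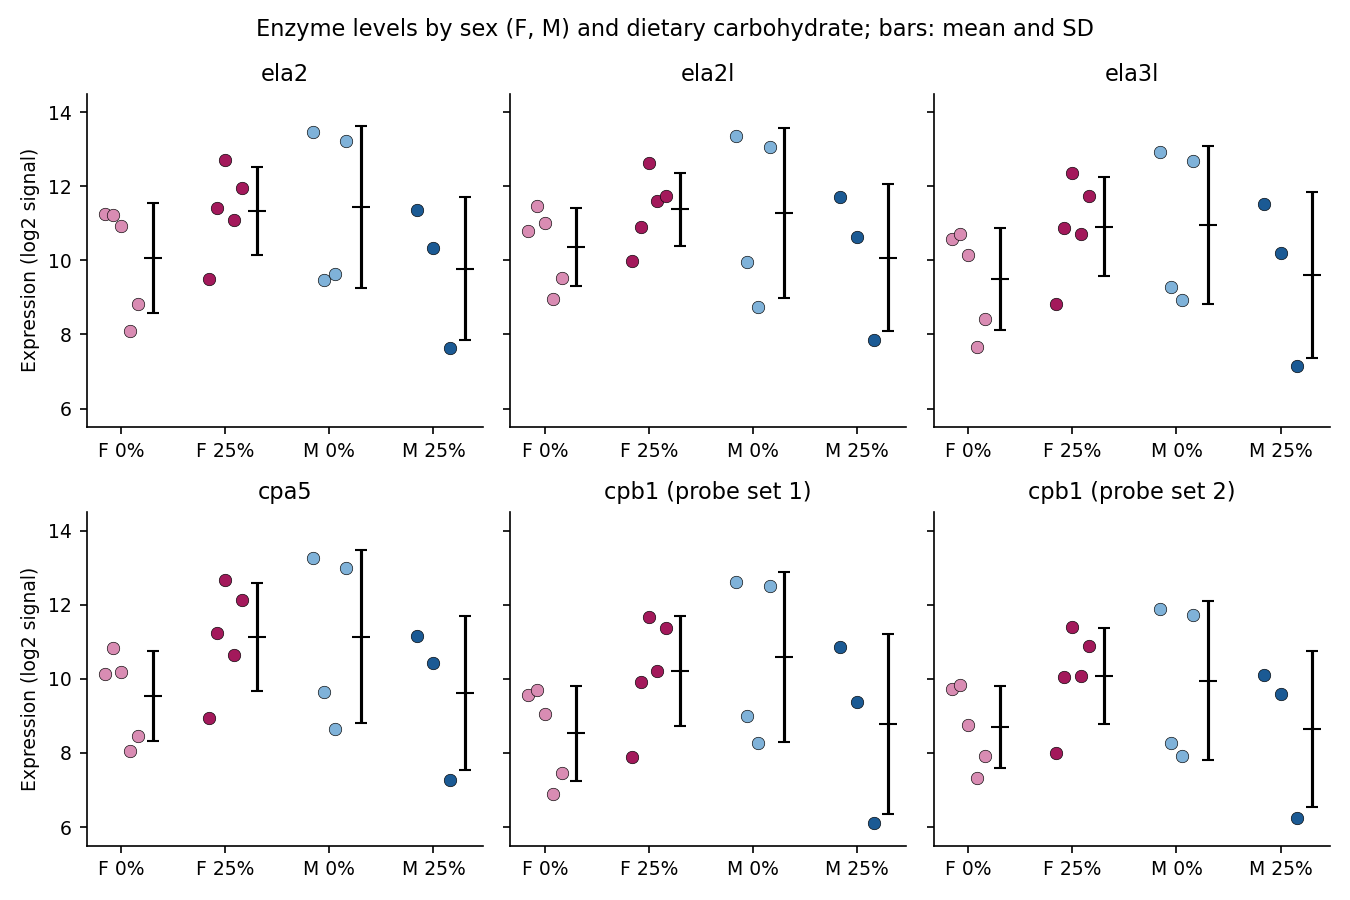
Log2 signal of each enzyme probe set by group (F, females; M, males; 0% or 25% carbohydrate), 1 point per fish, with mean and SD. Males on 0% split into 2 high fish (11 and 66) and 2 low fish (26 and 30), and all groups overlap.

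The comparison of diets within females asked whether the enzymes differed between 25% and 0% carbohydrate. The 6 probe sets were higher on 25% by 1.02 to 1.69 on the log2 scale, with a median of 1.39 against -0.03 for all probe sets, and none passed the test. For ela2 the means were 10.07 ± 1.49 (SD, n = 5) on 0% and 11.33 ± 1.19 (SD, n = 5) on 25%. The difference was 1.27 ± 0.98 (SE), with a 95% interval from -0.82 to 3.35, and limma's adjusted p was 0.637. Without female fish 25, the lowest of its group, the difference was 0.78 for ela2 and 0.68 for ela2l. Without female fish 3, the lowest on 25%, it was 1.72 for ela2 and 1.37 for ela2l. With all fish the difference for the first cpb1 probe set was 1.69 ± 1.07, with an interval from -0.58 to 3.95. Its adjusted p from limma, 0.55, was the lowest of the 6. Of all probe sets 2.1% passed in this comparison. At an unadjusted p under 0.05 the count among the 6 was also 0, here and in each of the other 4 comparisons. The share of all probe sets at that threshold is not given here, and the 6 moved together. This count therefore says little about the enzymes. In bulk tissue, fewer cells of a type and less RNA in each cell cannot be told apart.

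In males the direction was the other way, and again no probe set passed. The differences between 25% and 0% were -1.81 to -1.20, with a median of -1.43 against -0.01 for all probe sets. Ela2 averaged 11.44 ± 2.18 (SD, n = 4) on 0% and 9.78 ± 1.92 (SD, n = 3) on 25%, a difference of -1.67 ± 1.18 with a 95% interval from -4.18 to 0.85 (limma, adjusted p = 0.792). The size rested on single fish. Without fish 54 the difference was -0.60 for ela2 and -0.11 for ela3l. Without fish 11, 52 and 66 it was -0.57 for ela2 and -0.09 for ela2l. Of the 6 it was then largest in size for the first cpb1 probe set. That probe set was 9.37 and 6.12 in fish 53 and 54, against 9.002 and 8.26 in fish 26 and 30. Leaving out fish 11 or fish 66 alone gave -0.51 and -0.61 for ela2l, and leaving out fish 30 or fish 52 alone gave -2.05 and -2.02. Of all probe sets 0.116% passed.

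Between the sexes on 0% carbohydrate, the female minus male differences of the 6 probe sets were -2.06 to -0.92, and none passed (3.33% of all probe sets did). The first cpb1 probe set averaged 8.53 ± 1.28 (SD, n = 5) in females and 10.59 ± 2.29 (SD, n = 4) in males. Its difference was -2.06 ± 1.13, with a 95% interval from -4.47 to 0.34 (limma, adjusted p = 0.337, unadjusted p = 0.0877). This direction rested on male fish 11 and 66 together. Leaving out 1 fish turned none of the 6, although ela2l, at -0.92 with all fish, moved to -0.23 without fish 11, -0.33 without fish 66, -0.58 without female fish 25 and -1.77 without fish 30. Without fish 11, 52 and 66, 5 of the 6 probe sets were higher in females, ela2l by 1.01 ± 0.86 and ela2 by 0.51 ± 1.01, and the first cpb1 probe set stood at -0.10 ± 1.09.

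On 25% carbohydrate females were higher by 1.29 to 1.56, and none of the 6 passed (4.91% of all probe sets did). Ela2 differed by 1.56 ± 1.13, with a 95% interval from -0.85 to 3.96 (5 females and 3 males; limma, adjusted p = 0.519). Without fish 11, 52 and 66 the difference was 2.35 ± 1.01 for ela2 and 2.12 ± 0.86 for ela2l. The latter had the lowest adjusted p of the 6 there, 0.217. Without fish 54 the difference was 0.49 for ela2 and 0.05 for ela3l, and without fish 52 it was 2.35 for ela2 and 2.24 for ela3l.

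The interaction, which subtracts the male diet difference from the female one, was the largest estimate and was not called either. It lay between 2.23 for ela2l and 3.50 for the first cpb1 probe set, with standard errors of 1.44 to 1.67. For the cpb1 probe set the 95% interval ran from -0.06 to 7.05, the unadjusted p was 0.0536 and limma's adjusted p was 0.846. Of all probe sets 0.697% passed. Without fish 11, 52 and 66 the interaction was 2.57 ± 1.54 for this probe set and 1.12 ± 1.21 for ela2l. Without fish 54 alone it was 2.17 for the cpb1 probe set and 1.12 for ela2l. In these 5 comparisons every 95% interval included 0 and also differences of more than 2-fold in at least 1 direction, so the data neither show a difference nor bound it closely. The 2 diet and 2 sex comparisons share groups in pairs.

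**Figure D4:**
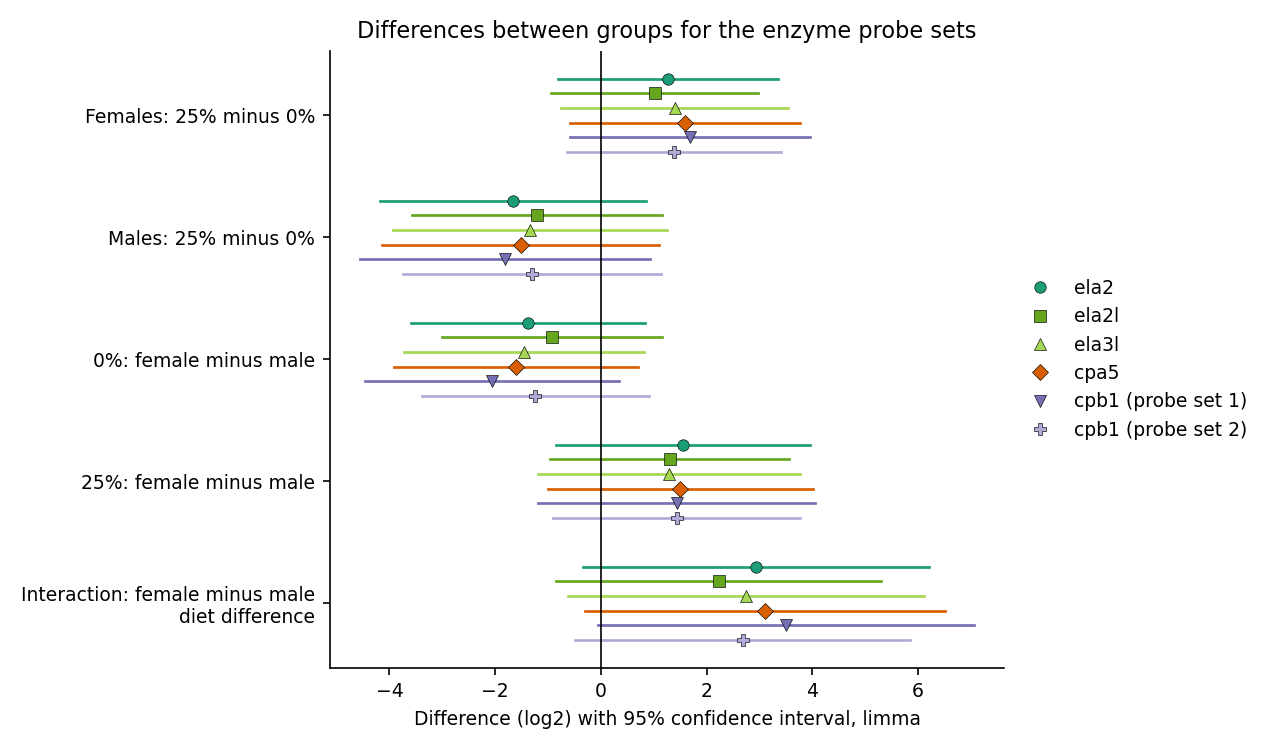
Differences for the 6 enzyme probe sets in 5 comparisons, as log2 differences with 95% confidence intervals from limma; the vertical line marks 0. All 30 intervals include 0, and the point estimates are positive in females for diet and negative in males.

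Most of the genes whose levels over the 17 fish were most like the set's mean encode other secreted products of acinar cells. The 10 named probe sets with the highest Pearson's r were ctrb.1 at 0.992, cpa1 at 0.988, prss1 at 0.985, cel.1 at 0.983, cela1.1 at 0.982, cela1.6 at 0.980, sycn.2 at 0.978, ctrl at 0.975, c6ast3 at 0.973 and amy2a at 0.970. Prss1 is a trypsinogen gene and cel.1 encodes a bile salt activated lipase. Cela1.1 and cela1.6 are further elastase genes, sycn.2 encodes syncollin of the zymogen granule, ctrl is a chymotrypsin-like gene and amy2a encodes amylase. C6ast3 belongs to the astacin proteases. Without fish 54 and 11, r for these 10 lay between 0.962 and 0.988. Of the 10, 8 were in a list of 38 other exocrine pancreas genes. That list was drawn up beside the set with earlier results of these data known, so the overlap is only a description. Its measured genes were 15 of the 8793 named genes. In all, 21 probe sets outside the set reached an r of 0.9, and 12 of their 15 gene symbols were in that list. None of the 15502 probe sets had an r of -0.9 or below.

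Prss1 shows the shared pattern outside the set. In females prss1 was 11.58, 11.62, 11.10, 9.23 and 9.42 on 0%, and 10.02, 11.96, 13.11, 12.13 and 12.64 on 25%. In males it was 13.54, 10.71, 10.26 and 13.50 on 0%, and 12.78, 11.54 and 9.10 on 25%. Fish 11 and 66 were again on top and fish 54 at the bottom, and the groups overlapped. Cela1.6, with prss1 the brightest of the list, ranged from 8.81 in fish 54 to 13.65 in fish 11.

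Of the 38 genes in that list 15 were measured, and 0 of the 15 passed in any of the 5 comparisons. Over all probe sets 2.1% passed for diet in females, 0.116% for diet in males and 3.33% for sex at 0%. For sex at 25% 4.91% passed, and for the interaction 0.697%. With shares this low, 0 calls among 15 genes say little about the list. Between diets their median difference was 1.45 among females and -1.34 among males. Between sexes it was -1.69 at 0% and 1.06 at 25%. For the interaction the median was 2.74. These are the directions seen for the 6 probe sets, in the same fish, with medians over all probe sets between -0.03 and 0.02. As for the 6, the median at 0% rested on the high males. Without fish 11, 52 and 66 it was 0.28, against 0.008 over all probe sets. Without these fish the median was -0.13 for diet in males, 1.93 for sex at 25% and 1.64 for the interaction. Again 0 of the 15 passed. Over all 15502 probe sets 364 passed there for diet in females, 28 for diet in males and 304 for sex at 0%. For sex at 25% 768 passed, and for the interaction 15. Most of the 15 genes moved closely together on the same arrays, so they are not separate observations. The median r of the 15 with the enzyme mean was 0.970.

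Amy2al1 and cuzd1.1 of this list departed from the pattern, and amy2al1 was singled out after its values were seen. Amy2al1, annotated as an amylase gene like amy2a, lay between 9.12 and 10.31 in all 17 fish and had an r of -0.212. Amy2a ranged from 6.52 to 13.19. Cuzd1.1, whose mammalian counterpart is a zymogen granule membrane protein, was 10.94 in fish 11, 11.25 in fish 66 and 12.44 in fish 52, and at most 6.15 in the other 14 fish. Female fish 24 and 51, which ranked 3rd and 4th for the enzymes, had cuzd1.1 at 4.51 and 4.73. High cuzd1.1 thus went with the high intestinal markers and not with the enzymes alone. Pdia2, a protein disulfide isomerase abundant in the mammalian pancreas, was dimmer than the array's median probe set in 12 of 17 fish but followed the enzymes, with an r of 0.816. It was highest in fish 11, 66 and 24, at 6.77, 5.99 and 5.74, and lowest in fish 54, at 2.74.

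Of 15 listed transcription factors and secretion genes of acinar cells 7 were measured. Of these, the bulk signals of xbp1, nr5a2 and sox9b did not follow the enzymes closely, with r of -0.108, -0.197 and -0.121. Ptf1a, the factor that drives acinar gene expression, lay between 2.80 and 3.65 and was dimmer than the array's median probe set in 16 of 17 fish. Vamp8, a granule fusion protein and the only secretion gene measured, was so in 17 of 17. Signals this dim cannot show whether ptf1a and vamp8 follow the enzymes. Pdx1, at 3.62 to 4.63, and gata6, at 4.08 to 4.90, lay not far above the array medians of 3.52 to 3.61. These 2 genes too can show little on this point. The 7 measured genes of that list had r between -0.202 and 0.422 with the enzyme mean. Xbp1, a factor of secretory cells that hepatocytes also express, was higher in females on 0% by 1.97 ± 0.21 and on 25% by 1.25 ± 0.22 (limma, adjusted p = 0.000103 and 0.00283). Nr5a2, a nuclear receptor of liver and pancreas, fell by 0.57 ± 0.13 on 25% in females (limma, adjusted p = 0.0302). Its r with the enzyme mean was -0.197. The other 5 genes (ptf1a, gata6, pdx1, sox9b and vamp8) passed in none of the 5 comparisons, where 0.116% to 4.91% of all probe sets did. Sox9b, a duct cell factor, ranged from 5.11 to 7.34.

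Endocrine pancreas genes were high in some fish of high enzyme level and low in others. Ins, the insulin gene, was 10.58 and 10.74 in female fish 20 and 24, 8.67 in female fish 51, 10.83 in male fish 66 and 11.71 in male fish 52. In male fish 11, with the highest enzyme levels, ins was 4.26, the lowest of the 17 fish. In the 5 females on 0% it lay between 4.53 and 5.06. Male fish 26 and 53, which ranked 12th and 10th for the enzymes, had ins at 6.89 and 7.55. Sst2, a somatostatin gene of the islets, was 9.05 in fish 66 and 3.82 in fish 11. Insb and neurod1 were dimmer than the array's median probe set in all 17 fish. Over 8 measured genes the mean was 5.72, 5.93, 5.99 and 6.51 in fish 20, 24, 66 and 52, and 3.17 in fish 11. None of the 8 genes passed in any comparison (limma, lowest adjusted p 0.234), where 0.116% to 4.91% of all probe sets did. The part of islet tissue in the enzyme levels was not tested.

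**Figure D5:**
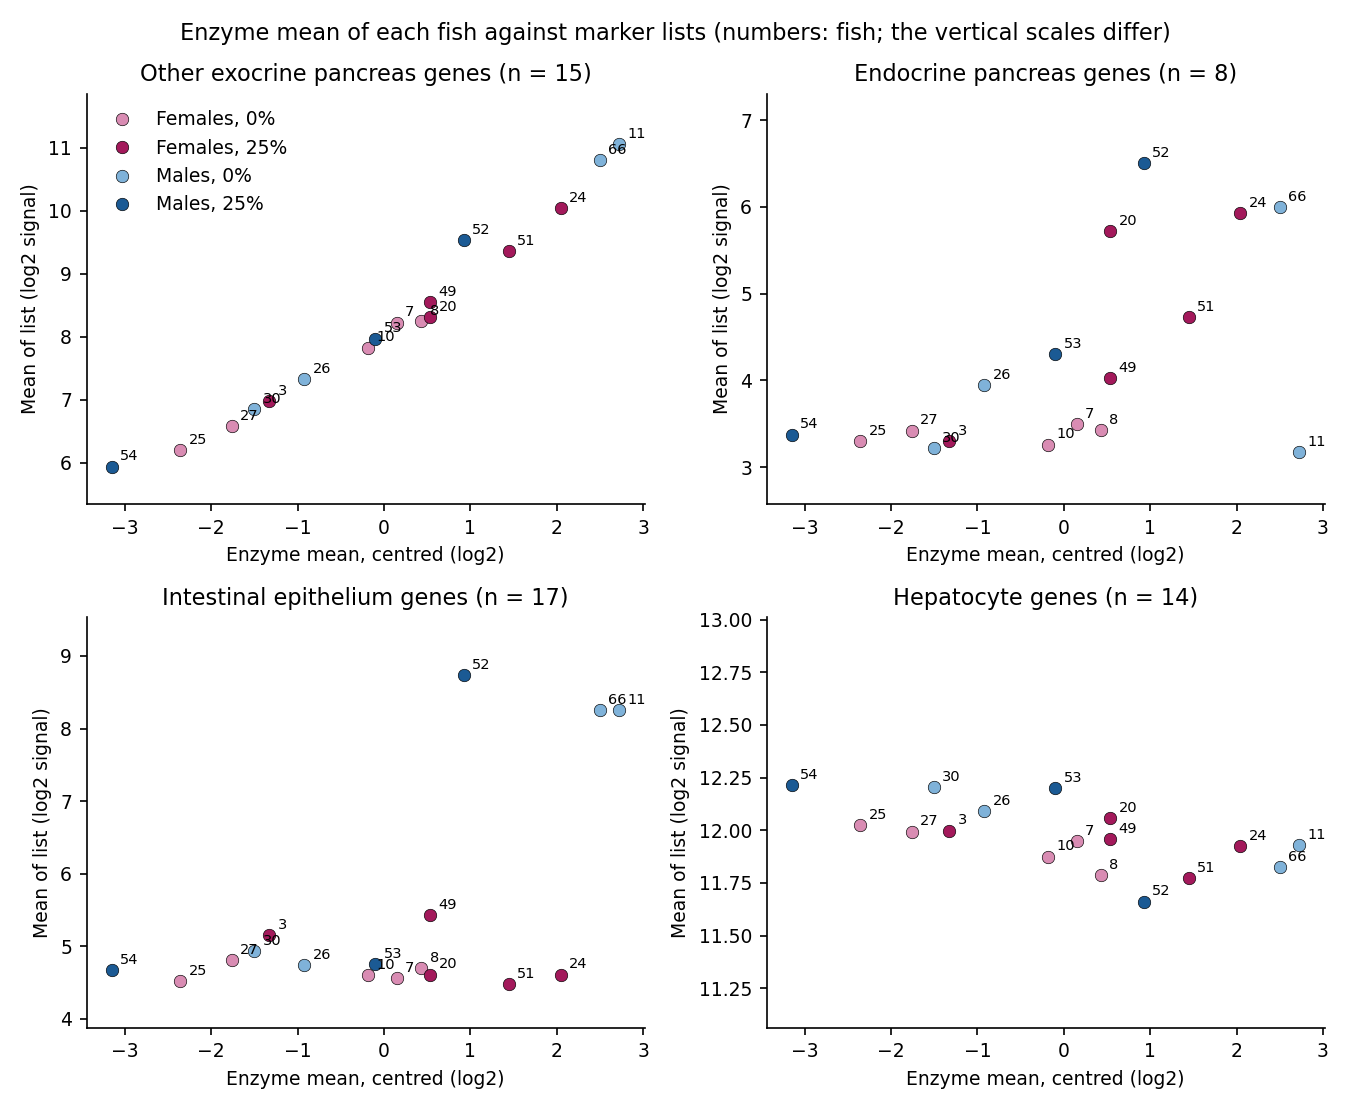
Mean log2 signal of 4 marker lists in each fish against the centred mean of the 6 enzyme probe sets (log2); numbers are fish. Other exocrine genes are higher where the enzymes are higher, and the intestinal list mean is high only in fish 11, 52 and 66. The endocrine mean is low in fish 11, and the hepatocyte mean stays between 11.66 and 12.21.

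A high mean of the intestinal list occurred with high enzymes in 3 males but in no female. Vil1, the villin gene of the gut brush border, was 6.51 in fish 11, 6.48 in fish 66 and 7.16 in fish 52. In the other 14 fish it was 1.98 to 2.44 and below the array's median. Slc15a1b, a peptide transporter of the gut, was also below the median in 14 fish. Female fish 24 and 51 had intestinal list means of 4.61 and 4.47, within the range of the low fish, with ela2 at 12.70 and 11.95. Single genes of the list were raised in some of the other 14 fish. Chia.1 was 7.75 in female fish 49 and 5.69 in female fish 3, and fabp1b.1 was 7.38 in male fish 30. Rbp2a and apoa4b.1 are on the intestinal list but were bright in every fish, at 11.20 or more and 10.07 or more. Rbp2a, a retinol binding protein gene, was the 1 of 17 that passed, for sex at 25%, where 4.91% of all probe sets did. Its female minus male difference there was -0.78 ± 0.15 (limma, adjusted p = 0.00625).

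The mean of the hepatocyte markers varied little, and its order was not simply the reverse of the enzymes'. It was lowest, at 11.66, 11.77, 11.79 and 11.83, in fish 52, 51, 8 and 66, which ranked 5th, 4th, 8th and 2nd for the enzymes. It was highest, at 12.21, 12.20, 12.20 and 12.09, in male fish 54, 30, 53 and 26, which ranked 17th, 14th, 10th and 12th. In fish 11, with the highest enzyme levels, it was 11.93. Single genes varied more. Tat, the gene of tyrosine aminotransferase, ran from 7.80 in fish 52 to 10.90 in fish 11, and c3a.1, a complement C3 gene, from 9.26 in fish 66 to 10.85 in fish 53. The 14 genes had r between -0.759 for fga, the fibrinogen alpha chain gene, and 0.043 for apoa2. Their median r was -0.374, against -0.081 over all probe sets. Fgg, the fibrinogen gamma chain gene, was the 1 of 14 that passed, for sex at 25% (4.91% of all probe sets). Its female minus male difference was -0.45 ± 0.11 (limma, adjusted p = 0.0347). Without fish 11, 52 and 66, 3 of the 14 passed for sex at 25% and 2 for sex at 0%, all lower in females. Over all 15502 probe sets 768 and 304 passed there.

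Of 14 ovary and oocyte markers 11 passed for diet in females (2.1% of all probe sets), all higher on 25%. For sex at 25% 13 passed (4.91% of all probe sets), all higher in females, and for the interaction 7 passed (0.697% of all probe sets). These counts were 11, 11 and 0 without fish 11, 52 and 66. Over all 15502 probe sets 364, 768 and 15 passed there. The markers had r between -0.054 and 0.241 with the enzyme mean. Females on 25% overlapped in enzyme level with females on 0%. Of 7 red cell markers 1 passed, the haemoglobin gene hbba2, for sex at 25% (4.91% of all probe sets). Its female minus male difference was -4.60 ± 0.91 (limma, adjusted p = 0.00617). Of 6 smooth muscle and stroma markers 0 passed in any comparison, where 0.116% to 4.91% of all probe sets did. Markers of red cells had r of -0.335 to 0.077, and those of smooth muscle and stroma 0.349 to 0.592. The latter averaged 5.92 to 7.20 in fish 11, 52 and 66 and at most 5.20 in the others. The parts of these tissues in the enzyme levels were not tested.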

How the data were processed

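The deposited table gives 1 value per probe set and array. These deposited values are log2 signals (base 2 was inferred from their range), and how the authors normalized them is not given in the sources used here. Per the submitters' processing notes MAS5, RMA, GCRMA and PLIER were used, without saying which made the table. Of 15617 probe sets 115 controls were left out. The medians of the arrays differed by at most 0.0877, so no further normalization was made (the limit set for it was 0.2). Symbols came from the platform annotation, and 10711 of 10795 probe sets with 1 symbol were matched to RefSeq by Entrez ID.

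All 17 arrays entered 1 limma 3.58.1 fit (R 4.3.3) of the 4 group means, with lmFit and eBayes. The 5 contrasts were diet in each sex, sex at each diet, and the interaction, with Benjamini and Hochberg adjustment over 15502 probe sets and a threshold of 0.05. The model was tested on simulated data. The members and the 8 gene lists (1 probe set a gene, the brightest) were chosen with earlier results of these data known. The lists cover other exocrine pancreas enzymes, acinar transcription factors, endocrine pancreas, intestine, hepatocytes, ovary, red cells, and smooth muscle with stroma. Named besides the members were the 10 probe sets most like their mean, the 2 brightest and 2 dimmest genes of the exocrine, endocrine, intestinal and hepatocyte lists, and list genes past the threshold; the other genes were chosen after their values were seen. Of the ovary, red cell and stroma lists only counts, ranges and the red cell gene hbba2 are given. List values and SDs without male fish 11, 52 and 66 were added after seeing the data. Sequences of promoters and proteins were not analysed here.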

Additional observations from a re-analysis of the deposited data

How the results depend on the processing

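Under 8 alternatives (7 for the interaction) and in the 17 fits that each left out 1 fish, no enzyme probe set passed in any comparison. These were quantile normalization, centring on array medians, dropping the dimmer 7751 probe sets, a trended robust eBayes, array weights, a fit of only the groups compared, averaging probe sets by gene, and leaving out male fish 11, 52 and 66. The lowest adjusted p of an enzyme in any of these limma fits was 0.217. Directions turned only without fish 11, 52 and 66, for sex at 0%: 0.51 for ela2, 1.01 for ela2l, 0.39 for ela3l, 0.39 for cpa5 and 0.61 for the second cpb1 probe set, none past the test. The median of the 15 other exocrine genes turned likewise, to 0.28, which was computed after seeing the data. Leaving out these fish removes the 2 males on 0% with the highest enzyme levels and leaves only fish 26 and 30 in that group.

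Counts over all probe sets moved more. Diet in males had 18 calls, 40 with array weights, 0 with only the groups compared and 28 without fish 11, 52 and 66; leaving out 1 fish gave 1 (without fish 53) to 52 (without fish 52), and fish 11, 26, 30, 54 and 66 each also moved it by over 1.5 times. Sex at 0% had 516, 337 with only the groups compared and 304 without the 3 males; leaving out 1 fish gave 275 to 593, and fish 7, 8, 11 and 66 each moved it by over 1.5 times. Sex at 25% had 761, and 394 with only the groups compared. The interaction had 108, 64 with array weights and 15 without the 3 males; leaving out 1 fish gave 43 (without fish 53) to 163 (without fish 8), and fish 7, 10, 11, 24, 26, 27, 30, 52, 54 and 66 each also moved it by over 1.5 times. The causes were not tested. No paired analysis was possible because no fish number occurs in more than 1 group.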

Other observations

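Tests for values far from the rest of their group found none among 45 sets of values of the enzymes, ctrb.1 and the list means. Groups of 3 fish were not tested. Males on 0%, with 2 high and 2 low fish, are a case that such a test cannot mark. The 2 probe sets of cpb1, read from the same gene, departed from the fish mean in unlike ways in some fish. The first lay above it by 0.34, 0.44 and 0.38 in male fish 11, 66 and 52, where the second lay below it by 0.24, 0.17 and 0.22. Male fish 26, of low enzyme level, had the same split, 0.37 above and 0.20 below. In female fish 25 and 27 the split was reversed. There the first lay 0.31 and 0.34 below the fish mean, and the second 0.28 and 0.27 above it. The signs were also negative for the first and positive for the second in female fish 7 (-0.14 and 0.17) and 20 (-0.18 and 0.11). Male fish 53 had the same signs (-0.09 and 0.30). In female fish 24, of high enzyme level, they were the other way (0.07 and -0.04). In the remaining fish both lay on the same side. Examples are 0.32 and 0.45 below the mean in female fish 10 and 0.38 and 0.05 above it in female fish 51. The fish mean includes both probe sets. For each step of 1 in the mean of the other 5 they moved by 1.13 and 0.945, so part of the split at high and low levels follows from this.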
